A study of Homo sapiens with 2 samples.

Results

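The 10 genes described here are FOS, FOSB, FOSL1 and FOSL2 of the FOS family, JUN, JUNB and JUND of the JUN family, the zinc finger factor EGR1, and the early response genes IER2 and IER3. They were chosen by name, as the genes whose RefSeq transcript is printed on the array, with earlier results of these data known. They stand among 23753 genes and unnamed transcripts that were measured, and all 10 had at least 1 probe, 11 probes in all. HepG2, a human liver cancer cell line that keeps many hepatocyte functions, was treated for 24 h either with dimethyl sulfoxide (DMSO, 0.1%), the solvent control, or with hawk tea extract (HTE), an ethanol extract of hawk tea leaves redissolved in DMSO. The sample labels give an HTE dose of 200 μg per mL, and the study's text names a higher dose for the arrays. Each condition is 1 sample of this cell line on 1 single-colour array, so no test between the conditions was possible, no p value is given, and a difference between samples or arrays cannot be told apart from the treatment. The set is wider than a name such as AP-1 and EGR would say, since EGR1 is its only EGR gene and IER2 and IER3 belong to neither family.

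FOS and JUN proteins are basic leucine zipper (bZIP) factors that pair with each other to form activator protein 1 (AP-1), which binds a short DNA element in many promoters and enhancers. JUN proteins can pair among themselves, whereas FOS proteins need a partner. Growth factors, serum, stress and inflammation switch several of these genes on within minutes through mitogen-activated protein kinases (MAPK), with no need for new protein synthesis. Most of those transcripts then decay fast, so that a culture harvested after a day shows their late and not their first levels. EGR1 and the IER genes belong to the same early wave.

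Of the 10 genes 3 were higher with HTE by 2-fold or more. These were JUND (3.63-fold), FOS (2.66-fold) and FOSL2 (2.34-fold), and none was at least 2-fold lower. Among all genes 5.25% were at least 2-fold higher and 3.03% at least 2-fold lower. The log2 ratio of HTE over DMSO, after each array was scaled to its 75th percentile, had a median of 0.58 over the 10 genes and of 0.00 over all genes. The JUN family lay between 0.70 and 1.86, the FOS family between -0.13 and 1.41, and EGR1, IER2 and IER3 between 0.07 and 0.17. FOSB was the only gene below 0, but 4 genes were below 0 without scaling and 9 were with scaling to the spike-in RNA, which lowers every ratio. The ratios thus give each gene's position relative to the rest of the array and not an absolute amount of RNA, and in such a bulk sample fewer cells with a transcript and less of it per cell cannot be told apart.

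**Figure D1:**
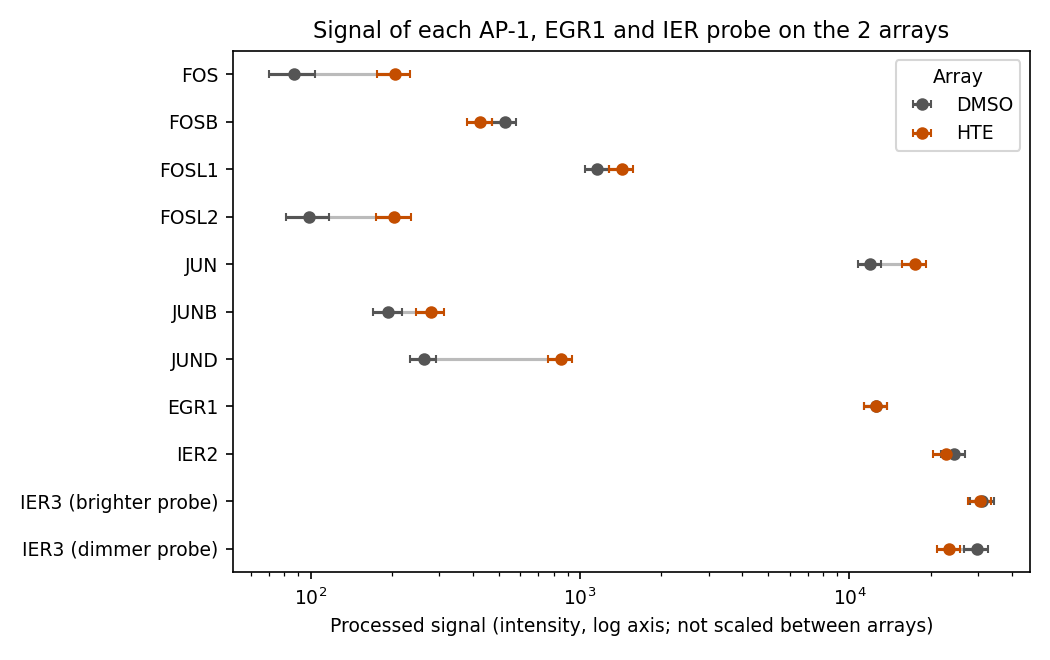
Processed signal (intensity on a log axis, before any scaling between arrays) of the 11 probes on the DMSO and the HTE array, 1 spot each, with bars for the error that the scanner software gives to the spot. FOS, FOSL1, FOSL2, JUN, JUNB and JUND are brighter on the HTE array by more than both bars, FOSL1 only just. The dimmer IER3 probe is lower on the HTE array by more than both bars, while EGR1, IER2 and the brighter IER3 probe have nearly the same signal on both arrays.

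Because these genes are known for what their promoters read, the 250 bases before the annotated start are shown for 6 of them, the 3 genes past 2-fold and FOSB, JUN and EGR1 for contrast. They come from RefSeq (GRCh38.p14), which held a window for 8 of the 10 genes, and are written 5′ to 3′ on the strand of the gene. Capitals mark matches to the cyclic AMP response element TGACGTCA or its shorter core TGACGT, which lies inside it, to the element TGACATCA known from JUN, and to the CArG box, the site of serum response factor (SRF). Both strands were searched, so ACGTCA is the core read on the other strand.
FOS (chr14:75278578-75278827, plus strand): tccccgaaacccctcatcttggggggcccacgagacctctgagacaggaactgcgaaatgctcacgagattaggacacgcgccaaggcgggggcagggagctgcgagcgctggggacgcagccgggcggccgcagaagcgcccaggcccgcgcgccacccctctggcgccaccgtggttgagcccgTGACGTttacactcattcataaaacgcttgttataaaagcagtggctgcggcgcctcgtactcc
FOSL2 (chr2:28392608-28392857, plus strand): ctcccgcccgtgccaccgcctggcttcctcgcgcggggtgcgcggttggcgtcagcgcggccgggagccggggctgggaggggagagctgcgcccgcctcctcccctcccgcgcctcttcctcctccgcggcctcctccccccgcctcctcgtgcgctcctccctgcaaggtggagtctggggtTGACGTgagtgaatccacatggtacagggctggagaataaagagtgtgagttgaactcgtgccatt
JUND (chr19:18281623-18281872, minus strand): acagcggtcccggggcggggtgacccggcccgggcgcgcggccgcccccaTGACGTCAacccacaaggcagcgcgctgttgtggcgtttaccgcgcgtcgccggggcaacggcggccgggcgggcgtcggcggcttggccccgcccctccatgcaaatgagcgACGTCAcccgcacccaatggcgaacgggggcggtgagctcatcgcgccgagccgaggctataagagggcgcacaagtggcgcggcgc
FOSB (chr19:45467746-45467995, plus strand): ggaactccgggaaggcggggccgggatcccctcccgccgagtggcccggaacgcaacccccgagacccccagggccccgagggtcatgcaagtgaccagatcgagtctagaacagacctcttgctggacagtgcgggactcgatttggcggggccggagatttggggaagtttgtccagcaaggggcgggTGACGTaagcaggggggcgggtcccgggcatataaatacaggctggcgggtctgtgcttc
JUN (chr1:58784048-58784297, minus strand): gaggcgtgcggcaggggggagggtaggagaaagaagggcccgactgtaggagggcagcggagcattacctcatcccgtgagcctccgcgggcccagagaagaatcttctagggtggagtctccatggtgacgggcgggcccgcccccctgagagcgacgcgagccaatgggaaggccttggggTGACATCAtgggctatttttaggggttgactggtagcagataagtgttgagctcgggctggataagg
EGR1 (chr5:138465229-138465478, plus strand): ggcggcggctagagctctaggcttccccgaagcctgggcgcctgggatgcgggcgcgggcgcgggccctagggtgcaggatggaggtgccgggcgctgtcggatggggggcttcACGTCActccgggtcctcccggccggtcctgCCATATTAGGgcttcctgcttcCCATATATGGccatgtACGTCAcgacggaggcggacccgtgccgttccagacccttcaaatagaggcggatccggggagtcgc

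The core TGACGT stood in 5 of the 8 windows and in 7.1% of all 35116 promoter windows of this length. It lay at bases 64 to 59 before the start in FOS, 66 to 61 in FOSL2 and 60 to 55 in FOSB. EGR1 had it, read on the other strand, at 67 to 62 and at 136 to 131. Of these genes FOS and FOSL2 were past 2-fold, and FOSB (log2 ratio of -0.13) and EGR1 (0.17) were not, so the same letters went with different values. JUND alone had the full TGACGTCA, 200 to 193 bases before its start, which 1.65% of all windows held, and a core closer to the start. JUN had TGACATCA 67 to 60 bases before its start, an element in 2.37% of all windows. EGR1 held CArG boxes at 105 to 96 and at 83 to 74 bases before its start, which 1.16% of all windows did, and its signal differed little between the arrays. The classical AP-1 element TGACTCA (4.2% of all windows) and the EGR1 element GCGTGGGCG (0.72%) were in none of the 8 windows. These are matches of letters in a short window, and no binding was measured.

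FOS codes for the founding member of its family, the AP-1 subunit that serum induces most briefly. Its only probe had a signal of 87.0 ± 16.7 on the DMSO array and of 206 ± 28.5 on the HTE array, where the error is that of the spot from the software's own model. Both values were well above background by the software's flag, but they are dim, and the DMSO value lay below the lowest signal flagged as well above background on the HTE array (94.6). Scaled, the log2 ratio was 1.41, with a propagated software error of 0.34. FOSL2, which codes for the FOS-related protein FRA2, was dim too, with 98.8 ± 17.9 on the DMSO array and 205 ± 30.1 on the HTE array. Its log2 ratio was 1.22 with an error of 0.34, so that the lower end of that range, 0.89, fell short of 2-fold.

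The remaining FOS genes stood closer to the centre of the array. FOSL1 codes for FRA1, an AP-1 subunit that is often high in growing tumour cells. It measured 1161 on the DMSO array and 1427 on the HTE array, a log2 ratio of 0.47 with an error of 0.21. FOSB, a close relative of FOS, measured 527 and 426 in the same order. This gave a log2 ratio of -0.13 with an error of 0.22, a range that includes 0. Within the FOS family, then, FOS and FOSL2 stood above the 2-fold line, FOSL1 below it and FOSB at about 0.

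JUND had the largest ratio of the 10 genes. It codes for the JUN protein that is present at a steady level in many resting cells and is the least like an immediate early gene of the set. Its signal was 263 ± 29.6 on the DMSO array and 847 ± 86.8 on the HTE array, a log2 ratio of 1.86 with an error of 0.22. Of all 23753 genes and transcripts, 271 (1.14%) had a ratio at least this high, against 565 (2.38%) for FOS and 786 (3.31%) for FOSL2. JUN, the main partner of FOS, was bright, at 11906 on the DMSO array and 17465 on the HTE array, with a log2 ratio of 0.72 and an error of 0.20. JUNB, which often restrains JUN, was dim, at 194 and 279.6 in that order, and its log2 ratio of 0.70 had an error of 0.25. JUN and JUNB thus differed by far less than their errors, both under 2-fold.

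EGR1, an early zinc finger activator that many growth signals induce, measured 12587 ± 1259 on the DMSO array and 12559 ± 1256 on the HTE array. Its log2 ratio of 0.17 was within its error of 0.20, and without scaling it was -0.0032. IER2, a small nuclear protein of the early response, measured 24341 and 22770.0 in the same order, with a log2 ratio of 0.07. IER3 codes for a short-lived protein that protects cells from death signals, and is the only gene of the set with more than 1 probe. The brighter probe measured 31150.4 on the DMSO array and 30613 on the HTE array, a log2 ratio of 0.15, and the other probe 29655 and 23411, a log2 ratio of -0.17. Both lie within their errors of 0.20, so the direction of IER3 was not resolved. For these 3 genes, all bright, neither direction could be told from the values.

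**Figure D2:**
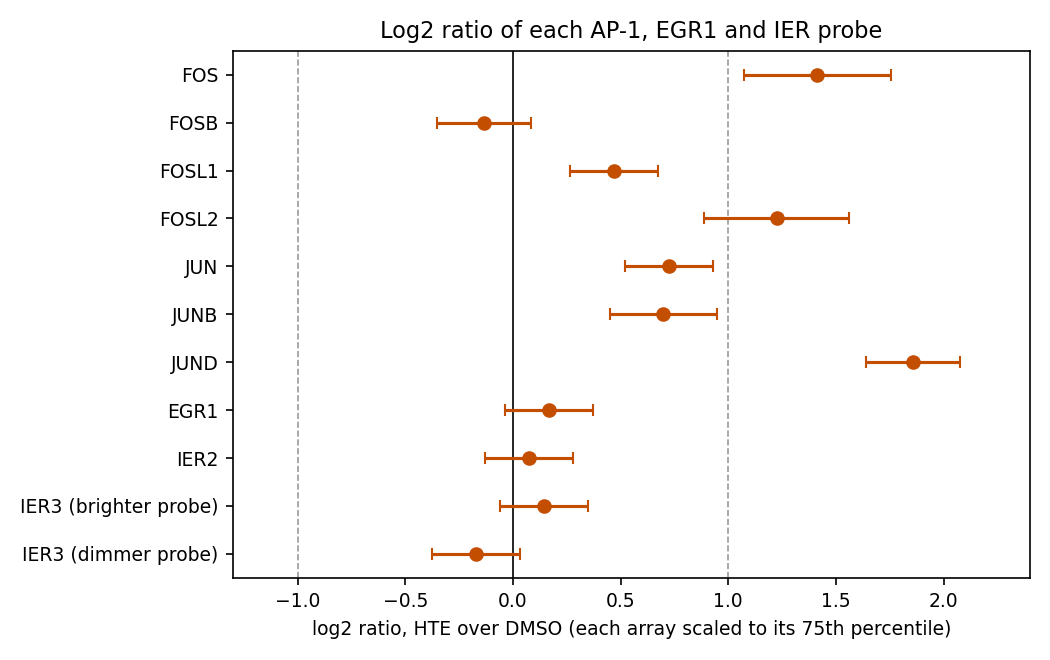
Log2 ratio of HTE over DMSO for each of the 11 probes after scaling to the 75th percentile, with bars for the software error carried to the ratio, a solid line at 0 and dashed lines at 2-fold. JUND, FOS and FOSL2 lie beyond the 2-fold line, with the bar of FOSL2 reaching back over it, and the bars of FOSB, EGR1, IER2 and both IER3 probes include 0; with scaling to the spike-in RNA only JUND and, by one way of computing it, FOS stay above 0.

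Each of the 11 probes had 1 spot, so the arrays hold no repeat of these values. Probes elsewhere that were printed at least 5 times give a measured scale of error for a like brightness (within 1 on the log2 scale). There the median SD of the log2 ratio over spots was 0.16 near FOS (39 probes), 0.15 near FOSL2 (42 probes) and 0.09 near JUND (73 probes), against 0.04 near JUN, EGR1, IER2 and IER3. Against the largest such SD near each gene, the ratios of FOSB (largest SD of 0.45) and IER2 (largest SD of 0.11) were smaller in size, and those of the other 8 genes were larger, so this measure does not set the 3 genes past 2-fold apart. Over all signals, different probes of a gene scattered more than spots of a probe. The median SD was 0.16 over 3759 genes, against 0.05 over 681 probes with replicate spots. The former was not matched for brightness and is about the spot SD near FOS and FOSL2. None of these errors holds the variation between cultures, which the number of arrays leaves unmeasured.

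**Figure D3:**
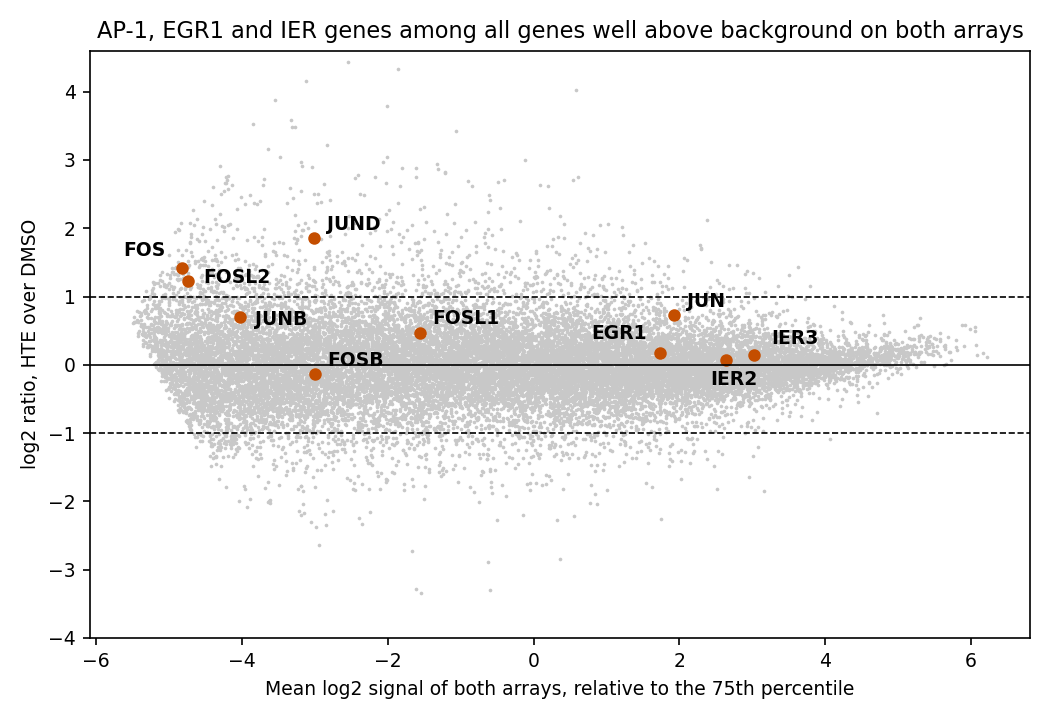
Log2 ratio of HTE over DMSO against the mean log2 signal of both arrays relative to the 75th percentile, for all genes well above background on both arrays (grey) and the 10 genes (orange), with dashed lines at 2-fold. The cloud is wider at low signal, where FOS, FOSL2, JUNB and JUND lie, and narrow at high signal, where JUN stands near its upper edge and EGR1, IER2 and IER3 inside it.

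Signal went with the ratio among the 10 genes. The 5 genes with a DMSO signal under 1000 (FOS, FOSB, FOSL2, JUNB and JUND) had a median log2 ratio of 1.22 and include all 3 genes past 2-fold, and the 4 genes over 10000 (JUN, EGR1, IER2 and IER3) had a median of 0.16. Of 5979 genes with a mean signal like that of FOS, FOSL2 and JUND and well above background on both arrays, 442 (7.39%) were at least 2-fold higher, a larger share than among all genes, with a median of 0.02. Near the brightness of JUN the share was 1.73%. The part of low signal in these ratios was not tested, but the treatment of the background bears on the dimmest of them. The median pixel of the FOS spot less its local background was 126.5 on the DMSO array and 253.5 on the HTE array, which gave a scaled log2 ratio of 1.17 in place of 1.41. For FOSL2 the same values were 149.5 and 256, and the ratio of 0.94 was under 2-fold. For JUND they were 320.0 and 960.0, with a ratio of 1.75. With normexp background correction, which adds 50 to each signal, FOS (0.85) and FOSL2 (0.70) were both under 2-fold and JUND (1.58) was not.

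**Figure D4:**
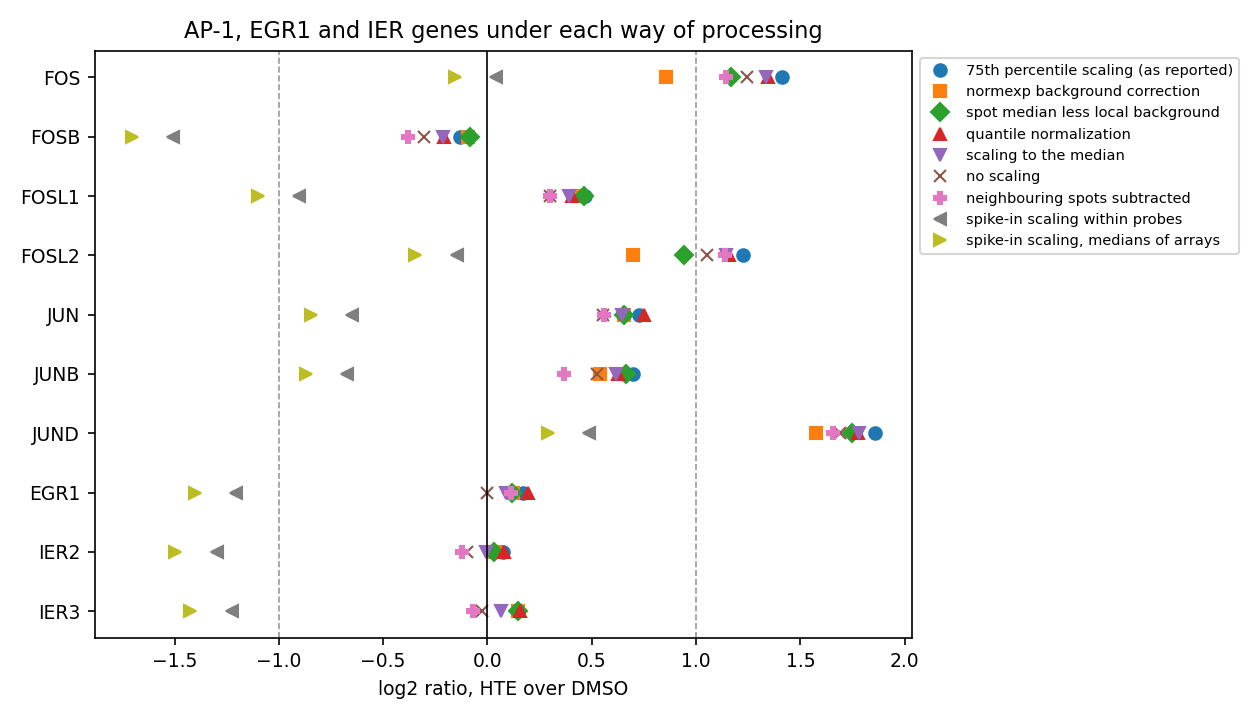
Log2 ratio of HTE over DMSO of the 10 genes under 9 ways of processing (symbols), with a solid line at 0 and dashed lines at 2-fold. JUND stays beyond 2-fold under each of them but the scalings to the spike-in RNA, where it is 0.49 and 0.29; FOS and FOSL2 cross the line with the background correction, and the spike-in scalings put 8 and 9 of the genes below 0.

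AP-1 is also formed with other bZIP proteins, and their genes were measured beside the FOS and JUN genes. Of 12 such genes 4 (33.3%) were at least 2-fold higher and none lower, with a median log2 ratio of 0.62. ATF3, a stress-induced partner of JUN, measured 4870 on the DMSO array and 16152 on the HTE array, a log2 ratio of 1.90. Its other probes gave 1.61, 0.35 and, on a probe well above background with DMSO only, a bound of -0.09, so the probes of ATF3 disagree. MAFF (1.36), a small MAF protein without an activation domain, and BATF3 (1.31) and BATF (1.25), partners of JUN best known from immune cells, were the other 3. The lowest ratio was that of BATF2 (-0.62). All 12 genes were well above background on both arrays, and their median was 0.45 without scaling and -0.95 with spike-in scaling.

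The EGR family gave a split picture. Of 4 measured genes for its other members and their corepressors, 2 were at least 2-fold higher, with a median of 0.34 that was 0.06 with normexp background correction. EGR2 measured 86.5 on the DMSO array and 191 on the HTE array, with a log2 ratio of 1.32. EGR4 measured 77.8 and 174 in the same order, with a ratio of 1.34, while EGR3 had no array on which it was well above background. The DMSO signals of EGR2 and EGR4 lay below the lowest signal flagged as well above background on the HTE array (94.6). EGR1 itself had a ratio of 0.17. The corepressors that bind EGR proteins were within 2-fold, NAB2 with a log2 ratio of -0.65 and NAB1 with -0.64 at its brighter probe and -0.25 at the other.

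Other immediate early genes did not move as a block. Of 27 genes, 16 had a ratio above 0 and 11 below 0 (median of 0.28), 3 (11.1%) were at least 2-fold higher and 1 (3.7%) at least 2-fold lower. ARC, best known for its role at synapses, measured 78.6 on the DMSO array and 288 on the HTE array, a log2 ratio of 2.04. Its DMSO signal lay below the lowest signal flagged as well above background on the HTE array (94.6). KLF2, a zinc finger factor, measured 403 and 1057, a log2 ratio of 1.56, and KLF4, which was well above background on the HTE array alone, was at least 2.62-fold higher. CCN2, a matrix protein induced by YAP and TGF-beta signalling, went the other way, from 5996 on the DMSO array to 1404 on the HTE array, a log2 ratio of -1.92.

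The genes that switch the early response on showed little difference as lists. None of 7 genes for SRF, its cofactors and CREB1 was past 2-fold, with a median log2 ratio of -0.01 and a range, among those well above background on both arrays, from -0.89 for ELK4 to 0.52 for MRTFA. The other probe of ELK4 gave -0.26, so its low value rests on 1 of 2 probes that disagree. ELK1 (90.41 with DMSO and 58.59 with HTE) passed the background flag only with DMSO. It was too dim for a loss to be counted and entered at a bound of 0. With normexp background correction the median of this list was -0.14. Of 19 measured genes for EGFR, RAS proteins and the kinases of the MAPK cascades none was at least 2-fold higher and 2 (10.5%) were lower, with a median of -0.02. MAP2K6, which activates p38, measured 5014 on the DMSO array and 1282 on the HTE array, a log2 ratio of -1.80. RPS6KA3, the ERK-activated kinase RSK2, had a ratio of -1.07 at its brighter probe and -0.61 at the other. The highest ratio of this list was that of ARAF (0.45). Activity of these kinases lies in their phosphorylation, which an array does not measure.

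Genes often described as AP-1 targets had a median of 0.76, with 16 of 19 measured genes above 0, 6 (31.6%) at least 2-fold higher and 1 (5.26%) at least 2-fold lower. Several code for ligands of the EGF receptor or for cytokines. EREG measured 86.8 on the DMSO array and 243 on the HTE array, a log2 ratio of 1.66. Its DMSO signal lay below the lowest signal flagged as well above background on the HTE array (94.6). AREG, another EGF receptor ligand and a bright one, measured 10210 and 26164, with log2 ratios of 1.53 and 1.85 at its 2 probes. CXCL8, a chemokine for neutrophils, had a ratio of 1.45, LIF, a cytokine of the IL6 family, 1.01, and PLAUR, the urokinase receptor, 1.15. MMP7, a matrix protease, was well above background on the HTE array alone and at least 5.04-fold higher. CCND1, which codes for the G1 cyclin D1, measured 12156 on the DMSO array and 4895 on the HTE array, a log2 ratio of -1.14. The cytokine gene IL6 (99.65 with DMSO and 67.25 with HTE) and CD44 (82.18 and 21.69) passed the background flag only with DMSO. After scaling, their DMSO signals lay below the lowest HTE signal with that flag, so both entered at a bound of 0. A loss in such dim genes was thus not counted, whereas the gain of MMP7 was. The list holds targets of many other factors too, and the median was 0.47 with normexp background correction and -0.81 with spike-in scaling.

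**Figure D5:**
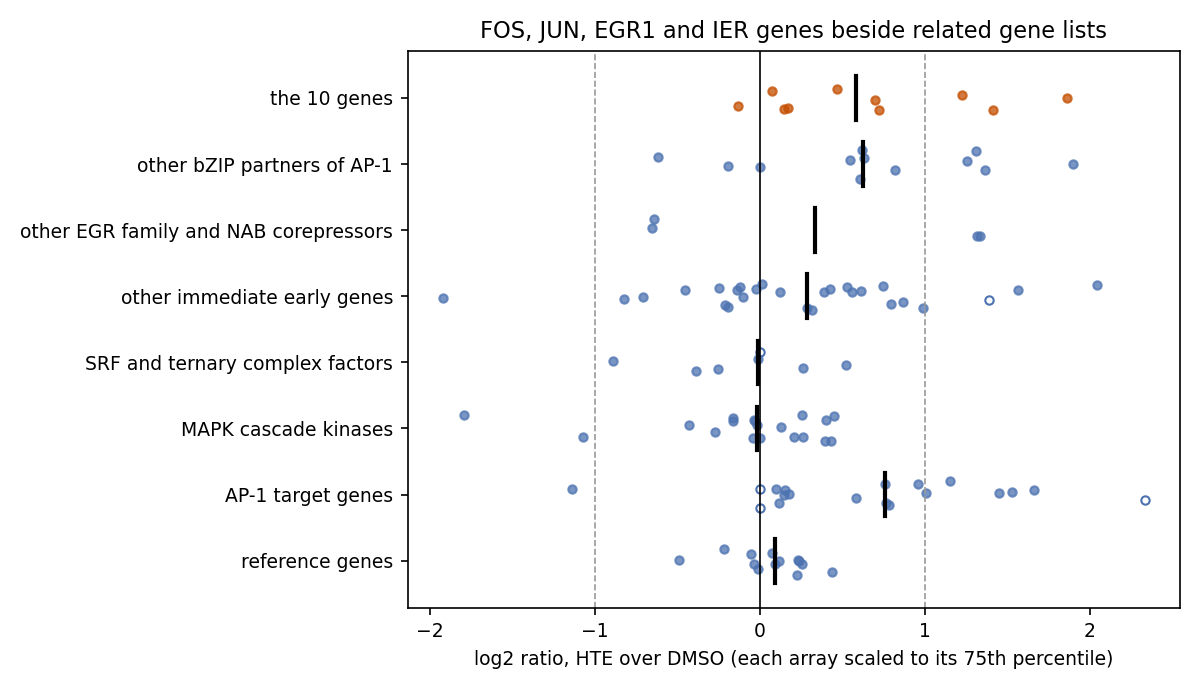
Log2 ratio of HTE over DMSO for each measured gene of the 10 genes and of 7 related lists, with the median of each list as a black bar, dashed lines at 2-fold, and open circles for genes well above background on 1 array only, drawn at their bound. The medians of the 10 genes (0.58), of other bZIP partners (0.62) and of AP-1 targets (0.76) lie to the right of the reference genes (0.09) in this scaling, and the kinases and SRF factors lie at about 0; with spike-in scaling all of the medians are below 0.

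The arrays differed in their spike-in RNA, whose median signal over 350 spots was 2190.3 on the DMSO array and 5415.2 on the HTE array. No spike-in probe had a median signal near these values. They fall in a gap between probes of 554.5 and 4067 on the DMSO array and of 1633 and 9747 on the HTE array. Of 58717 spots that are not controls, 60.6% on the DMSO array and 56.6% on the HTE array were well above background, none was saturated, and the 75th percentile of the signal was 4020.0 and 3570.3. In 13 reference genes the median log2 ratio was 0.09 and none was past 2-fold, from -0.49 (TBP) to 0.43 (GAPDH), and without scaling it was -0.08. All 10 hepatocyte markers were well above background on both arrays with none past 2-fold. Of 6 fibroblast markers 2 were above background on both arrays, with a summed signal of 1473 (DMSO) and 1221 (HTE) over the 3 measured, and of 6 leukocyte markers 4 were, with 12753.0 and 12041. Among the latter CD14, which hepatocyte lines can express, had a log2 ratio of -1.77. The part of other cells in the results was not tested.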

How the data were processed

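RNA of HepG2 cells treated with DMSO or HTE was labelled with Cy3 and hybridised to Agilent SurePrint G3 arrays, 1 array per condition. The authors deposited Feature Extraction output (version 11.5.1.1 per the file headers, 10.7 per the submitters' processing notes). The processed signal of a spot is an intensity that the authors' software had corrected for background, and it was not scaled between arrays. Flags for background, saturation and outliers and the spot errors come from the same software, and the arrays' design is built on hg19.

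Here control and outlier spots were left out, and log2 of the processed signal was taken less the 75th percentile of each array. Spots of a probe were averaged. Probes were kept where, on either array, a share of 0.5 or more of their spots passed the background flag, and a probe dim on 1 array entered at its bound, the bright value against the higher of its own and the lowest signal well above background. RefSeq accessions named 28146 of 50532 probes through the GRCh38.p14 gene table. The brightest probe stood for a gene, and 2-fold, the cutoff in the study's methods, was used for counts. The software error of a ratio is the root of the summed squares of both relative spot errors, on the log2 scale.

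The genes and lists were chosen with earlier results of these data known. Named genes are the 10 genes and, of each list, those past 2-fold and the highest and lowest, and NAB1 was named after its value was seen. Alternatives, 3 of them chosen after seeing the data, changed the background correction, scaling, filter, outlier spots, probe choice, position on the array and fold cutoff. The steps were tested on simulated data made from the DMSO array, in which only brighter genes were shifted. Shifts in genes as dim as FOS, FOSL2 and JUND, and the bound of a probe dim on 1 array, were not covered. Python 3.11.15 (numpy 2.4.6, pandas 2.3.3, matplotlib 3.10.9) and R 4.3.3 with limma 3.58.1 were used. With 1 array per condition, precision is limited by their number.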

Additional observations from a re-analysis of the deposited data

How the results depend on the processing

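Of 13 alternatives, 5 (the filters, outlier spots and the mean over probes) could not move genes with 1 bright enough spot on 1 probe. Among the other 8, JUND was at least 2-fold higher in 6, FOS in 5 and FOSL2 in 4. Both scalings to the spike-in RNA ended these calls, and normexp background correction those of FOS and FOSL2, where its offset of 50 is large beside their DMSO signals. FOSL2 was also under 2-fold with the spot median less local background, an alternative chosen after seeing the data. The direction of EGR1, IER2 and IER3 changed between alternatives. Spike-in probes were brighter on the HTE array by unequal amounts, from 0.45 to 1.57 on the log2 scale over 8 probes. The brightest differed least, with 1.27 at a DMSO signal of 4067, 1.15 at 14441, 0.91 at 31446 and 0.45 at 72434. JUN, EGR1, IER2 and IER3 have signals within this range, and the part of this trend in their ratios was not tested. The array medians of the spike-in spots fall in a gap between dimmer and brighter probes, so a scaling to them rests on few spots. With that scaling, the all-gene median shifted by -1.56 and the median of the 10 genes was -0.99. The ratios were -0.16 for FOS and -0.35 for FOSL2, with 0 of the 10 genes higher and 5 lower. In all, 86 genes were higher and 20597 lower. Scaling within spike-in probes, also chosen after seeing the data, shifted the all-gene median by -1.36. It gave -0.79 for the 10 genes and -0.15 for FOSL2, with 0 higher and 4 lower, and 114 and 18474 in all. Relative to the median of all genes, the 10 genes stood at 0.57 under both spike-in scalings, as they did without scaling. These settings only shift a whole array, which leaves that difference as it was, so its sameness is no separate result. The cause of the unequal spike-in signals was not tested.

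The median of the 10 genes was 0.49 with normexp, 0.52 with quantile normalization, 0.50 with scaling to the median, 0.41 without scaling (all-gene shift of -0.16) and 0.33 with each spot taken relative to its neighbours (shift of -0.21). Normexp left 1 of the 10 genes higher, a 1.5-fold cutoff 5 and a 3-fold cutoff 1. Over all genes, higher and lower counts were 1248 and 720 as reported, 825 and 468 with normexp, 2390 and 1869 with no filter on dim probes (shift of 0.21), 789 and 1516 relative to neighbours, 2953 and 2504 at 1.5-fold and 422 and 129 at 3-fold. Without scaling 1209 were lower, and 1321 where dim probes kept their own value in place of a bound. The share of higher calls among all calls was 63.4% as reported, 42.2% without scaling, 50.4% with those own values, 34.2% relative to neighbours, and 0.4% and 0.6% with the spike-in scalings. No paired analysis was possible because either condition has a single array.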
